A study of Homo sapiens with 14 samples.

Results

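The genes described here are 10 genes of the NRF2 and glutathione response. They were chosen by name among the 59471 gene names of the count files, with earlier results of these data known. They are the regulator NFE2L2 and its inhibitor KEAP1, the glutathione genes GCLC, GCLM and GPX2, the thioredoxin-linked genes TXNRD1 and SRXN1, and the stress genes NQO1, HMOX1 and OSGIN1. All 10 passed the filter on low counts in each comparison. They were measured by RNA-seq in 14 libraries of SCC23 cells, an established line of head and neck squamous cell carcinoma. KMT2D-WT cells carried a control guide against LacZ. Both KMT2D-KO lines, KO1 and KO2, carried CRISPR/Cas9 guides against KMT2D, a histone H3 lysine 4 methyltransferase. The cells were sorted for a fluorescent marker as populations, and no cloning of single cells was described. Each genotype was sampled with glucose and after 6 h without it, which gave 3 KMT2D-WT and 4 KMT2D-KO libraries with glucose and the same numbers without. By their labels, experiment 1 held 1 KMT2D-WT library and 1 library of each KO line in both conditions. Experiment 2 held 2 KMT2D-WT libraries and 1 library of each KO line, with 1 label in doubt as described below. The question was how the genes differed between the genotypes with and without glucose.

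NRF2, the product of NFE2L2, is a transcription factor that cells keep at a low level while KEAP1 holds it for ubiquitination by a CUL3 ligase. Oxidants and electrophiles modify KEAP1, and NRF2 then enters the nucleus, pairs with small MAF proteins and binds antioxidant response elements, where BACH1 competes with it as a repressor. Its targets make glutathione, reduce quinones, rebuild reduced thioredoxin and supply NADPH, and tumors of squamous epithelium often carry a permanently active form of the pathway.

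The counts were not normalized in the deposited files, and levels are given here as depth-scaled counts (CPM) with TMM scaling over all 14 libraries. Total counts ranged from 15669154 to 62968057 per library. The 4 libraries of experiment 2 with glucose had each mate of a pair counted, and even numbers made up 67.4% to 70.6% of their counts between 1 and 10 (37.4% to 42.7% in the 10 other libraries). Without glucose, the pairs of libraries of 1 genotype in experiment 2 were close to each other. Their chi-square per gene was 1.71 for KMT2D-WT and 1.78 for KMT2D-KO. It was 28.65 for the KMT2D-WT pair of experiment 2 with glucose, in which both mates were counted. The other pairs, at 25.9 to 83.0, set KO1 against KO2 and are not replicates of 1 line. Over 36 genes that set the KO lines apart with glucose, the library labelled KO1 in experiment 2 without glucose went against its label. It lay at a median log2 distance of 0.53 from KO2 and 3.68 from KO1. By expression, experiment 2 without glucose then had no library like KO1, so the mix of KO lines differed between the glucose conditions. In the fits of both experiments below, glucose and line cannot be told apart where the KO effect differs between the conditions. Experiment 1 held the same lines in both conditions, with 1 library each, and the difference was not tested there alone. KMT2D itself was at 265 to 279 CPM in KMT2D-WT cells with glucose, at 182 and 184 CPM in the libraries labelled KO1 and at 322 and 373 CPM in those labelled KO2. Without glucose it was at 230 to 239 CPM in KMT2D-WT cells, at 19.9 CPM in the KO1 library of experiment 1 and at 145 to 190 CPM in the other KMT2D-KO libraries. An edit that shifts the reading frame need not lower the RNA, so these counts neither show nor refute the knockout, and the KO2 libraries are named by their labels alone. The paper itself reports KMT2D mutations from genomic sequencing, and loss of the protein on western blot, in its KMT2D-KO SCC23 cells. Mitochondrial transcripts took 2.64% to 2.77% of the counts in glucose-deprived KMT2D-WT cells and 3.82% to 4.83% in glucose-deprived KMT2D-KO cells, and the part of this difference in the results below was not tested. The epithelial markers EPCAM (231 to 426 CPM), KRT14 (26.5 to 253 CPM) and TP63 (70.9 to 244 CPM) were present in every library. So were CDH1 (49.79 to 225.6 CPM) and KRT17 (24 to 1302 CPM). KRT5 was uneven, with a median of 21.99 CPM and a range from a low 1.503 CPM to 224.9 CPM. KRT6A reached at most 1.13 CPM, and the leukocyte markers PTPRC, CD3E and CD14 at most 0.0626, 0.0614 and 1.10 CPM. The endothelial markers PECAM1 and VWF reached at most 0.255 and 0.307 CPM and CDH5 was at 0.182 to 4.11 CPM. Of the fibroblast markers, COL1A1 was at 3.03 to 16.0 CPM and COL1A2, PDGFRB and DCN reached at most 5.33, 0.774 and 0.815 CPM.

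The promoters of 4 genes held the core of an antioxidant response element, and these stretches are shown because the element is the site through which NRF2 and BACH1 are known to act. The letters TGACNNNGC were searched on both strands of the promoter windows in RefSeq (GRCh38.p14, 250 bases before to 50 after each start). Of the 10 genes, 9 were matched to 12 windows and HMOX1 was not matched. The core was found in 5 of the 12 windows (41.7%), against 4687 of all 35116 windows (13.3%) and 19 of the 104 windows (18.3%) of the other genes of the pathway. Each core has a line below, 5′ to 3′ on the strand of the gene, with 25 bases on each side and that core alone in capitals, which read TGAC forward or GTCA on the complement. The 2 stretches of KEAP1 overlap.
GCLM, chr1:93909431-93909489, minus strand: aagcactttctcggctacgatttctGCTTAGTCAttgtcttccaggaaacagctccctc
TXNRD1, chr12:104215655-104215713, plus strand: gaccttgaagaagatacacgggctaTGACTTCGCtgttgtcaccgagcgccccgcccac
TXNRD1, chr12:104215746-104215804, plus strand: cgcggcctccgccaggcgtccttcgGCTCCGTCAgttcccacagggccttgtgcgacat
TXNRD1, chr12:104286905-104286963, plus strand: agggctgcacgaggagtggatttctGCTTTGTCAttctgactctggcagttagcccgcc
GPX2, chr14:64942834-64942892, minus strand: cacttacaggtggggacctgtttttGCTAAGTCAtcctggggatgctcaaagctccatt
KEAP1, chr19:10502792-10502850, minus strand: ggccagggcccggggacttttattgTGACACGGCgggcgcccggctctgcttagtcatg
KEAP1, chr19:10502769-10502827, minus strand: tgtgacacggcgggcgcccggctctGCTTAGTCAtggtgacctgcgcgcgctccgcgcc
The GCLM core and 1 of the 2 KEAP1 cores were identical (TGACTAAGC) and began 34 and 31 bases before the start. A match of letters is a description of the window and not a measured site.

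The genes differed widely in level. Per kilobase of exon not shared with another gene, NQO1 (159 ± 35.6 CPM per kb, SD, n = 3) and TXNRD1 (115 ± 27.6) were highest in KMT2D-WT cells with glucose. KEAP1 (30.1 ± 9.004), NFE2L2 (16.8 ± 1.88), GCLM (14.5 ± 1.61) and HMOX1 (13.4 ± 5.88) followed, and the ranges of the last 3 overlapped. SRXN1 (8.13 ± 4.14), GCLC (3.73 ± 0.109), OSGIN1 (3.58 ± 0.877) and GPX2 (0.495 ± 0.0593) were lowest on this scale. The value of SRXN1 is uncertain, since 90.7% of its exonic bases are also annotated to AL121758.1 on the same strand and only 236 bases are its own, and its counts ran from 18 to 283 per library. NFE2L2 shared 21.9% of its exonic bases with other gene names and NQO1 19.4%, the latter with an antisense gene that unstranded counting cannot tell apart. GPX2, a glutathione peroxidase of epithelia, had 9 to 71 counts per library.

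In the comparison of KMT2D-KO with KMT2D-WT cells kept in glucose, HMOX1 was far lower, GCLC and NQO1 were higher and GCLM was lower. Genes were called at a Benjamini-Hochberg adjusted p under 0.05 in edgeR's quasi-likelihood test, with experiment as a covariate and both KO lines together. Of the 10 genes, 2 were called higher and 2 lower, while 13.0% of all 20423 genes tested were called higher and 11.7% lower. Their median log2 fold change was 0.20, against 0.02 over all genes. Without glucose, 4 were called higher and 2 lower, against 25.9% and 24.9% of 16782 genes, with medians of 0.53 and 0.00. The separation of the libraries was less frequent than the calls. With glucose the KMT2D-KO and KMT2D-WT libraries did not overlap for GCLC upward and for HMOX1 and GCLM downward, which held for 9.66% and 10.4% of all genes. Without glucose they did not overlap for NQO1 upward and HMOX1 downward, as was the case for 16.3% and 18.9% of all genes. The share of all genes separated within each experiment was not computed, so such separations below are descriptions only. In bulk RNA, a change in every cell and a change in the share of cells that express a gene cannot be told apart.

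**Figure D1:**
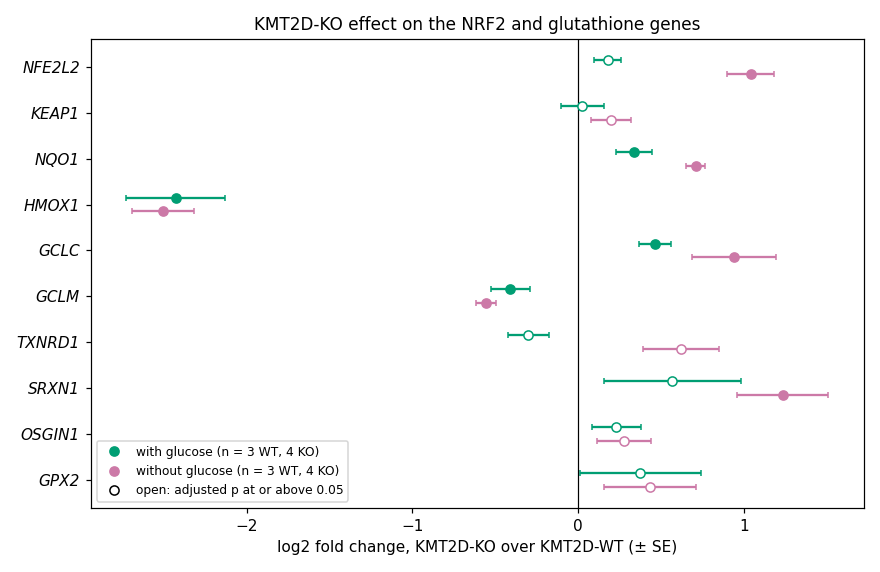
KMT2D-KO effect on the 10 genes, as the log2 fold change over KMT2D-WT cells with its SE (x axis), with glucose in green and without glucose in pink, from 3 KMT2D-WT and 4 KMT2D-KO libraries each. Filled points passed an adjusted p of 0.05 in edgeR. HMOX1 lies at -2.43 and -2.51, and the point of NFE2L2 moves from 0.18 to 1.04.

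HMOX1 (chr22:35380361-35394214, plus strand) encodes heme oxygenase 1, which degrades heme to biliverdin, iron and carbon monoxide and is a classic target of both NRF2 and BACH1. With glucose it was at 42.3 CPM in the KMT2D-WT library of experiment 1 and at 34.3 and 15.9 CPM in those of experiment 2. The KMT2D-KO libraries were at 8.59 CPM (KO1) and 4.64 CPM (KO2) in experiment 1 and at 6.22 CPM (KO1) and 4.14 CPM (KO2) in experiment 2. Each KMT2D-KO library was below each KMT2D-WT library, and the group means of 30.8 ± 13.5 CPM (SD, n = 3) and 5.90 ± 2.00 CPM (SD, n = 4) differed 5.22-fold. Without glucose the KMT2D-WT libraries were at 86.0, 61.1 and 63.5 CPM, and the KMT2D-KO libraries at 22.5, 15.5, 9.72 and 9.45 CPM in the same order. The groups were again separate. HMOX1 was higher without glucose in both genotypes, and the deprived KMT2D-KO mean of 14.3 ± 6.13 CPM (SD, n = 4) was below the fed KMT2D-WT mean, although the highest deprived KMT2D-KO library was above the lowest fed KMT2D-WT library. In edgeR the log2 fold change was -2.43 (SE 0.301, adjusted p = 0.000652) with glucose and -2.51 (SE 0.187, adjusted p = 0.000118) without. The KO effect did not pass the test of a difference between the glucose conditions (log2 difference -0.06, adjusted p = 0.946). Fitted in experiments 1 and 2 alone, its log2 fold change was -2.69 and -2.28 with glucose and -2.18 and -2.74 without. The value without glucose in experiment 1, from 3 libraries, did not pass the test (adjusted p = 0.130).

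The subunits of glutamate-cysteine ligase moved in opposite directions. This enzyme carries out the rate-limiting step of glutathione synthesis, with GCLC (chr6:53497341-53616970, minus strand) as its catalytic and GCLM (chr1:93885199-93909456, minus strand) as its modifier subunit. With glucose GCLC was at 28.1, 29.4 and 29.7 CPM in KMT2D-WT cells, and at 39.3, 37.7, 36.5 and 44.8 CPM in KMT2D-KO cells. GCLM was at 71.9, 88.7 and 76.0 CPM in KMT2D-WT cells and at 54.3, 41.8, 70.4 and 62.9 CPM in KMT2D-KO cells. The groups did not overlap for either gene. GCLC was called higher (log2 fold change 0.46, SE 0.0964, adjusted p = 0.00805) and GCLM lower (-0.41, SE 0.117, adjusted p = 0.0322) in edgeR. The paper itself reports higher GCLC mRNA in KMT2D-KO SCC23 cells by qRT-PCR.

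Without glucose GCLC was at 32.0, 38.2 and 39.0 CPM in KMT2D-WT cells, at 30.6 CPM in the KO1 library of experiment 1, and at 70.0, 88.5 and 85.7 CPM in the other KMT2D-KO libraries. The KO1 library thus lay below all 3 KMT2D-WT libraries and the others were above them. GCLM was at 63.9, 110 and 103 CPM in KMT2D-WT cells and at 40.02, 43.5, 75.1 and 77.3 CPM in KMT2D-KO cells, so that the KMT2D-KO libraries were lower within each experiment and the groups overlapped only across experiments. The log2 fold change was 0.94 (SE 0.252, adjusted p = 0.0186) for GCLC and -0.56 (SE 0.0627, adjusted p = 0.000525) for GCLM. The ratio of GCLC to GCLM counts was 0.331 to 0.391 in KMT2D-WT cells with glucose and 0.519 to 0.901 in KMT2D-KO cells, and 0.348 to 0.501 and 0.765 to 1.61 without glucose, which is given as a description because it was computed after the values of both genes were known. The call of GCLC without glucose was lost without any 1 of the 3 KMT2D-WT libraries (adjusted p = 0.0516, 0.0732 and 0.0710) or of the KMT2D-KO libraries of experiment 2 (0.0617 and 0.0591). With glucose it was lost when the experiment 1 library of KMT2D-WT was left out (0.0780), and that of GCLM without this library (0.251), the first KMT2D-WT library of experiment 2 (0.124) or the KO2 library of experiment 2 (0.0646).

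**Figure D2:**
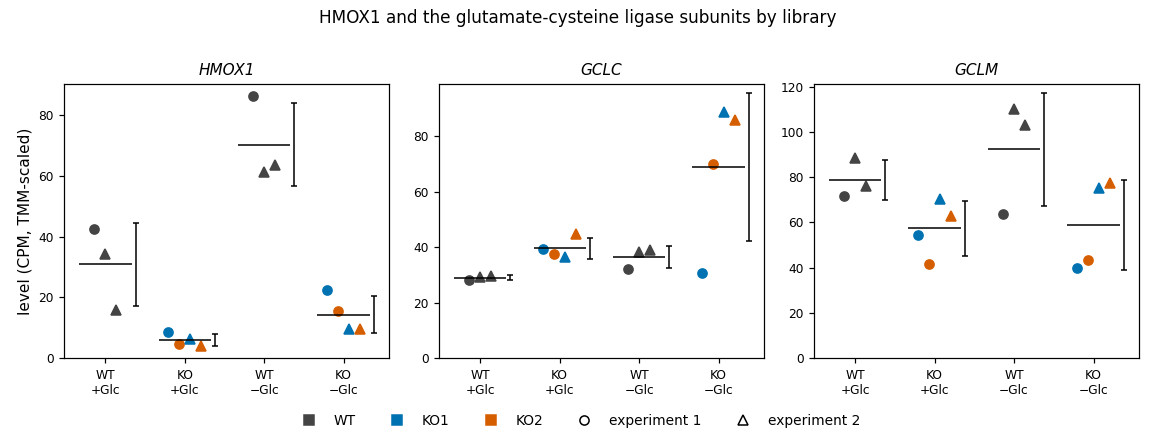
Levels of HMOX1, GCLC and GCLM in TMM-scaled CPM (y axes) in each library by genotype and glucose, with lines for group means, bars for SD (n = 3 KMT2D-WT, n = 4 KMT2D-KO), colors for the line in the labels and shapes for the experiment. All KMT2D-KO libraries lie below all KMT2D-WT libraries for HMOX1 in both conditions, and for GCLC without glucose only the KO1 library of experiment 1 (30.6 CPM) lies below the KMT2D-WT libraries.

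NFE2L2 (chr2:177227595-177392697, minus strand), the gene of NRF2, was higher in KMT2D-KO cells when glucose was withdrawn. With glucose it was at 64.6, 78.6 and 79.3 CPM in KMT2D-WT cells and at 71.4, 73.1, 83.5 and 95.3 CPM in KMT2D-KO cells, and the groups overlapped. Without glucose the KMT2D-WT libraries were at 62.9, 94.1 and 93.6 CPM. The KO1 library of experiment 1 was at 87.7 CPM, inside that range, while the KO2 library was at 137 CPM and the KMT2D-KO libraries of experiment 2 were at 220 and 216 CPM. In each experiment the KMT2D-KO libraries were above the KMT2D-WT libraries. The log2 fold change in edgeR was 0.18 (SE 0.0797, adjusted p = 0.142) with glucose and 1.04 (SE 0.143, adjusted p = 0.00116) without. The difference of these effects was 0.89 (SE 0.185, adjusted p = 0.0111), and in this fit NFE2L2 was the 1 gene of the 10 called, with 4.73% of 18678 genes called upward and 6.54% downward. With the close pairs of experiment 2 summed, the difference was 0.83 and its adjusted p was 0.102, and with experiment left out its adjusted p was 0.482. NQO1 and TXNRD1 were called beside it by DESeq2 (adjusted p = 0.0194 and 0.0119) and with RLE size factors (0.0490 and 0.0418). With glucose, NFE2L2 was called higher in edgeR with the libraries labelled KO2 alone (0.24, adjusted p = 0.0329). It was not called with those labelled KO1 alone (0.11, adjusted p = 0.389).

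KEAP1 (chr19:10486125-10503558, minus strand), the adaptor that marks NRF2 for degradation, was not called between the genotypes with all libraries in the fit. With glucose it ranged from 86.0 to 145 CPM in KMT2D-WT cells and from 85.7 to 133 CPM in KMT2D-KO cells, and the log2 fold change was 0.03 (adjusted p = 0.915). Without glucose it ranged from 101 to 137 CPM and from 115 to 171 CPM, with a log2 fold change of 0.20 (adjusted p = 0.214). It was called higher without glucose in 3 fits that kept close libraries of experiment 2 as replicates beside fewer others, namely KO2 alone (0.31, adjusted p = 1.79e-05), experiment 2 alone (0.28, 1.38e-07) and without the KO1 library of experiment 1 (0.29, 9.26e-07). With glucose the sign of its difference varied with the libraries used, from -0.23 in experiment 1 to 0.17 in experiment 2.

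NQO1 (chr16:69706996-69726668, minus strand), a quinone reductase often read as a marker of NRF2 activity, was higher in KMT2D-KO cells. With glucose it was at 472, 364 and 303 CPM in KMT2D-WT cells and at 514, 621, 403 and 462 CPM in KMT2D-KO cells. The KMT2D-KO libraries were above the KMT2D-WT libraries within each experiment and overlapped them across experiments. Without glucose the values were 500, 365 and 375 CPM against 725, 814, 641 and 649 CPM, with no overlap. The log2 fold change in edgeR was 0.34 (SE 0.107, adjusted p = 0.0480) with glucose and 0.71 (SE 0.0579, adjusted p = 0.000152) without. The call with glucose was lost without any 1 of the 3 KMT2D-WT libraries (adjusted p = 0.188, 0.0695 and 0.162) or either labelled KO2 library (0.0911 and 0.119), and with KO1 alone (0.105). The difference of the effects was 0.40 (adjusted p = 0.0771), which passed with RLE size factors (adjusted p = 0.0490), with DESeq2 (0.0194) and without the KO1 library of experiment 1 deprived of glucose (0.0213). It did not pass with the close pairs summed (0.303) or with experiment left out (0.784).

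TXNRD1 (chr12:104215779-104350307, plus strand), the cytosolic reductase that regenerates thioredoxin with NADPH, had effects of opposite sign in the 2 conditions that did not pass edgeR's test as described above. With glucose it was at 663, 987 and 670 CPM in KMT2D-WT cells and at 526, 538, 665 and 684 CPM in KMT2D-KO cells. Without glucose the KMT2D-WT libraries were at 653, 747 and 749 CPM. The KO1 library of experiment 1 was at 531 CPM, and the other KMT2D-KO libraries were at 1144, 1339 and 1339 CPM. As for GCLC, the KO1 library lay below the KMT2D-WT libraries and the others were well above them. The log2 fold change was -0.30 (adjusted p = 0.117) with glucose and 0.62 (adjusted p = 0.0597) without, and the difference was 0.95 (adjusted p = 0.0564). The effect in deprived cells and the difference passed with DESeq2 (adjusted p = 0.0183 and 0.0119) and with no filter on low counts (4.31e-13 and 5.30e-10), and the difference also with RLE size factors (0.0418). With the close pairs summed they were 0.56 (adjusted p = 0.289) and 0.87 (0.235). Without the KO1 library of experiment 1 they were 0.80 and 1.14 and both were called, but the close pairs of experiment 2 then carried more of the replication. With glucose, TXNRD1 was called lower without the second KMT2D-WT library of experiment 2 (-0.43, adjusted p = 0.0223) and with no filter on low counts (-0.32, adjusted p = 0.00334).

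**Figure D3:**
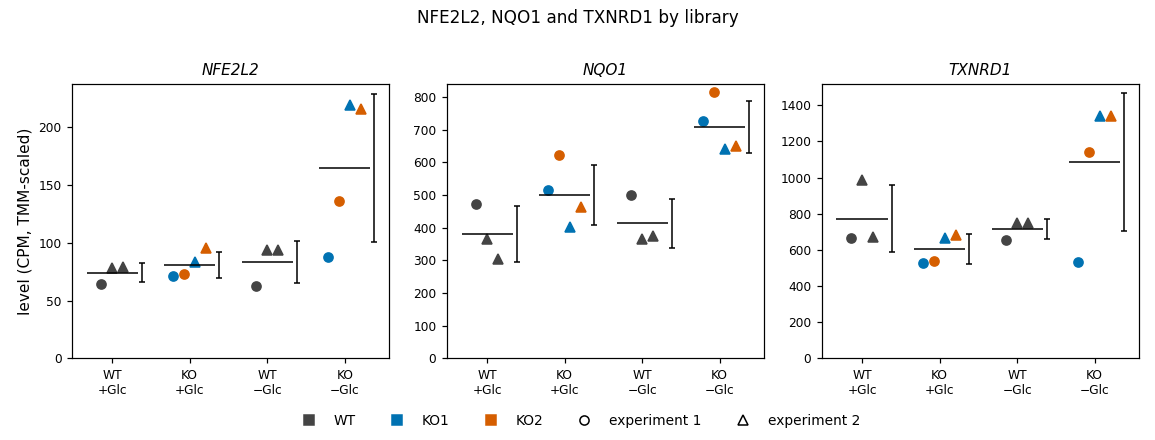
Levels of NFE2L2, NQO1 and TXNRD1 in TMM-scaled CPM (y axes) in each library by genotype and glucose, with lines for group means and bars for SD (n = 3 KMT2D-WT, n = 4 KMT2D-KO), colors for the line in the labels and shapes for the experiment. Without glucose, 3 of the 4 KMT2D-KO libraries of NFE2L2 (137 to 220 CPM) and of TXNRD1 (1144 to 1339 CPM) lie above all KMT2D-WT libraries, and the KO1 library of experiment 1 does not.

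SRXN1, OSGIN1 and GPX2 had no call with glucose, and only SRXN1 among them was called in deprived cells. SRXN1 (chr20:646615-653200, minus strand), which restores overoxidized peroxiredoxins, was at 2.63, 1.39 and 0.63 CPM in KMT2D-WT cells without glucose and at 6.76, 5.66, 2.32 and 2.59 CPM in KMT2D-KO cells. The libraries were separate within each experiment and overlapped across experiments. The log2 fold change was 1.24 (SE 0.275, adjusted p = 0.00886), on counts of 18 to 108 per library, and the call was lost with the experiment 1 library of KMT2D-WT left out (adjusted p = 0.0617). With glucose, where SRXN1 ranged from 1.08 to 2.99 CPM in KMT2D-WT cells and from 1.79 to 4.30 CPM in KMT2D-KO cells, the log2 fold change was 0.57 (adjusted p = 0.363).

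OSGIN1 (chr16:83931311-83966332, plus strand), a growth inhibitor induced by oxidative stress, ranged from 13.5 to 22.3 CPM in KMT2D-WT cells and from 18.4 to 27.7 CPM in KMT2D-KO cells with glucose, and from 14.5 to 25.6 CPM and 19.6 to 30.5 CPM without. The log2 fold changes of 0.23 (adjusted p = 0.300) and 0.28 (adjusted p = 0.200) did not pass the test. In the same 3 fits as KEAP1, OSGIN1 was called higher without glucose (adjusted p = 0.000856, 4.17e-06 and 5.62e-05). GPX2 (chr14:64939152-64942905, minus strand) stayed at 1.40 CPM or less in all libraries, with log2 fold changes of 0.38 (adjusted p = 0.510) and 0.43 (adjusted p = 0.226).

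**Figure D4:**
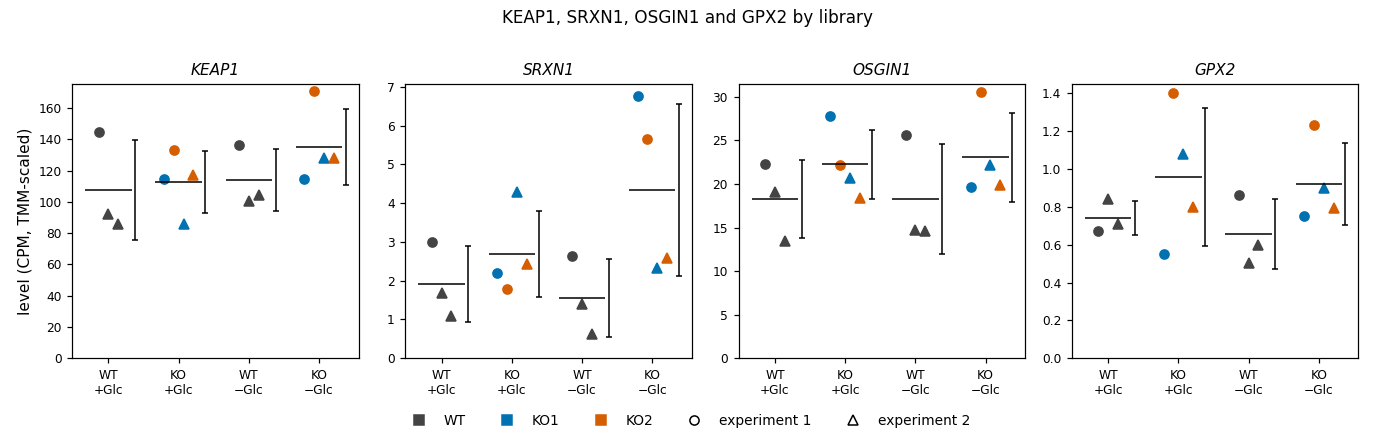
Levels of KEAP1, SRXN1, OSGIN1 and GPX2 in TMM-scaled CPM (y axes) in each library by genotype and glucose, with lines for group means and bars for SD (n = 3 KMT2D-WT, n = 4 KMT2D-KO), colors for the line in the labels and shapes for the experiment. The KMT2D-KO and KMT2D-WT libraries overlap in each panel and condition, and GPX2 does not exceed 1.40 CPM.

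The results without glucose were repeated without the library that went against its label and with each close pair of experiment 2 summed to 1 library. The fit pools both KO lines, so leaving that library out changes the mix of lines but cannot test its label. Without the library labelled KO1 in experiment 2, the log2 fold changes were -2.44 for HMOX1 (adjusted p = 0.00166), 1.01 for NFE2L2 (0.00777), 0.71 for NQO1 (0.00219), -0.54 for GCLM (0.00619), 1.29 for SRXN1 (0.0284) and 0.89 for GCLC (0.0617). With the close pairs summed they were -2.40 for HMOX1 (adjusted p = 0.0183), 1.00 for NFE2L2 (0.0446), 0.70 for NQO1 (0.0263), -0.56 for GCLM (0.0449), 1.24 for SRXN1 (0.0463) and 0.87 for GCLC (0.162). The call of GCLC was thus lost in both, and the directions were the same. With experiment left out of the fit, HMOX1 was called in both conditions (adjusted p = 0.0167 and 0.00403) and NQO1 without glucose (0.0176). The calls of NQO1, GCLC and GCLM with glucose (0.362, 0.108 and 0.266) and of NFE2L2, GCLC, GCLM and SRXN1 without (0.0751, 0.0946, 0.147 and 0.106) were then lost. With glucose, the calls of NQO1, GCLC and GCLM were lost in experiment 1 alone (log2 fold changes of 0.27, 0.45 and -0.58). They were also lost in experiment 2 alone (adjusted p = 0.144, 0.0966 and 0.188). Each call without glucose was lost in experiment 1 alone, which has 1 KMT2D-WT library. The log2 fold changes there were -2.18 for HMOX1, 0.84 for NFE2L2, 0.63 for NQO1, 0.66 for GCLC, -0.61 for GCLM and 1.24 for SRXN1. In experiment 2 alone these calls remained, but the close pairs were then the only replicates. GCLC without glucose was not called with the libraries labelled KO1 alone (0.111), of which 1 went against its label.

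The effect of glucose deprivation itself was compared in experiment 1, in which each line had 1 library with and 1 without glucose and all were counted alike. With line as a block, HMOX1 was the 1 gene of the 10 that was called, and it rose. The ratio of the deprived to the fed library was 2.03 in KMT2D-WT cells, 2.62 in KO1 and 3.33 in KO2, and the log2 fold change with line as a block was 1.34 (SE 0.193, adjusted p = 0.0131 in edgeR). With genotype in place of line it was not called (adjusted p = 0.194). Of all 16066 genes tested, 0.479% were called higher and 0.622% lower, and the median log2 fold change of the 10 genes was 0.26, against -0.02 over all genes. Some genes differed between the lines in this experiment. SRXN1 had ratios of 0.878 in KMT2D-WT cells, 3.06 in KO1 and 3.16 in KO2 (log2 fold change 1.00, adjusted p = 0.214). NFE2L2 had ratios of 0.973, 1.23 and 1.87 (0.36, adjusted p = 0.307), and TXNRD1 0.984, 1.01 and 2.12 (0.33, adjusted p = 0.405). These differences between the lines rest on 1 pair of libraries each and were not tested on their own. NQO1 (0.30, adjusted p = 0.310), GCLC (0.22, adjusted p = 0.603), GCLM (-0.21, adjusted p = 0.516), KEAP1 (0.07, adjusted p = 0.833), OSGIN1 (0.03, adjusted p = 0.944) and GPX2 (0.15, adjusted p = 0.894) did not pass the test either. SRXN1 was called at 1.60 without the fed or the deprived KMT2D-WT library (adjusted p = 0.0151 and 0.0132). With all 14 libraries, whose fed libraries of experiment 2 were counted differently, NFE2L2 (0.62, adjusted p = 0.00875), NQO1 (0.34, 0.00869) and GCLC (0.57, 0.0169) were called higher.

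**Figure D5:**
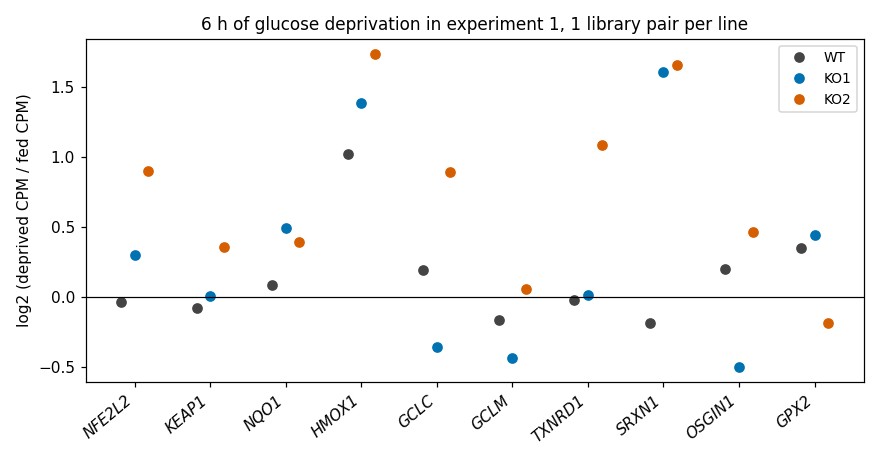
Change of the 10 genes after 6 h of glucose deprivation in experiment 1, as the log2 ratio of the deprived to the fed library (y axis), with 1 pair of libraries for each of KMT2D-WT, KO1 and KO2. HMOX1 is above 0 in all 3 lines (ratios of 2.03, 2.62 and 3.33), and SRXN1 is above 0 in both KO lines.

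The KO lines were compared with glucose. KEAP1 was lower in the libraries labelled KO1, at 114 and 85.7 CPM, than in those labelled KO2, at 133 and 117 CPM (log2 fold change -0.34, SE 0.102, adjusted p = 0.0328). The ranges of the lines, of 2 libraries each, did not overlap. The share of all genes for which this holds was not computed, so it is a description only. In this fit it was the 1 gene of the 10 called, against 7.37% of all genes called lower and 7.89% higher in KO1. The call was lost without the KO1 library of experiment 1 (adjusted p = 0.214), the KO1 library of experiment 2 (0.135) or the KO2 library of experiment 2 (0.590). HMOX1 had a log2 fold change of 0.71 between the lines (adjusted p = 0.123), at 8.59 and 6.22 CPM in KO1 and 4.64 and 4.14 CPM in KO2. That of NQO1 was -0.24 (adjusted p = 0.105). HMOX1 was called with no filter on low counts (adjusted p = 0.000336) and without either KMT2D-WT library of experiment 2 (0.0394 and 0.00122). NQO1 was called with no filter (0.0439), and NQO1 and GCLM without the second of those libraries (0.0133 and 0.0300). The medians over the 10 genes and over all genes were -0.08 and -0.02.

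The other genes of the pathway were taken from lists that also hold the 10 genes. These lists were chosen with earlier results of these data known, so their counts and medians are descriptions. Of the 78 other genes tested with glucose, 24 were called higher and 7 lower in KMT2D-KO cells, with a median log2 fold change of 0.20 (13.0%, 11.7% and 0.02 over all genes). Without glucose 36 of 77 were called higher and 10 lower, with a median of 0.32 (25.9%, 24.9% and 0.00 over all genes). For the difference between the conditions the counts were 8 and 2 of 77 (4.73% and 6.54% of all genes). For glucose deprivation in experiment 1, 4 of 77 were called higher (0.479% of all genes), and for KO1 over KO2 the counts were 6 and 16 of 78 (7.89% and 7.37% of all genes). Of the genes named below, SLC3A2, GPX4, GSTP1, AKR1C1, AKR1C2, ALDH3A1, TKT, TRIM16 and SOD1 were among those called between the KO lines.

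Among the 11 regulators of the pathway, 1 was called higher and 2 lower with glucose, and 4 higher and 3 lower without. These counts and those of the lists that follow, of 3 to 16 genes each, stand against 13.0% and 11.7% of all genes with glucose and 25.9% and 24.9% without, and no list was tested against all genes. BACH1, the repressor that competes with NRF2 and acts on HMOX1, had a log2 fold change of 0.43 (SE 0.119, adjusted p = 0.0277) with glucose and 1.41 (SE 0.205, adjusted p = 0.00152) without in edgeR, and the effects differed by 1.00 (adjusted p = 0.0300). MAFF, a small MAF partner, fell by 1.44 on the log2 scale with glucose (adjusted p = 6.49e-05), and its KO effect was 1.23 higher without glucose (adjusted p = 0.000369). CUL3, the scaffold of the ligase that degrades NRF2, fell by 0.74 on the log2 scale without glucose (adjusted p = 0.000469), and the difference of its effects was -0.93 (adjusted p = 0.000742).

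Of the 10 genes of glutathione synthesis and cystine supply tested with glucose, 5 were called higher and 1 lower, and without glucose 4 and 1 of 9. SLC7A11 and SLC3A2, the chains of the cystine transporter, had log2 fold changes of 0.74 (adjusted p = 0.000896) and 0.66 (adjusted p = 0.0117) with glucose. Without glucose SLC3A2 was at 1.24 (adjusted p = 3.78e-05), and SLC7A11, at 0.57 (adjusted p = 0.0891), was not called. Of 12 glutathione peroxidases, reductase and transferases, 2 were called higher and 1 lower with glucose, and 5 were called higher without. GPX4, which protects membranes from lipid peroxides, had a log2 fold change of -0.72 (adjusted p = 0.0255) with glucose, and GSTP1, a glutathione transferase, 1.12 (adjusted p = 4.91e-05) without. The glutathione reductase GSR was called higher in both, at 0.36 (adjusted p = 0.0299) and 0.66 (adjusted p = 0.000736).

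In the thioredoxin and peroxiredoxin system, 4 of 16 genes were called higher and 2 lower with glucose, and 7 and 3 without. TXNRD2, the mitochondrial thioredoxin reductase, was called lower in both conditions, at -1.13 (adjusted p = 0.000267) and -0.88 (adjusted p = 0.000103) on the log2 scale. Of 12 genes of quinone and carbonyl detoxification, 6 were called higher with glucose and 8 without. The largest were AKR1C1, at 3.16 (adjusted p = 0.00658) and 3.19 (adjusted p = 0.00225), AKR1C2, at 3.66 (adjusted p = 0.000752) and 3.38 (adjusted p = 0.000637), and the aldehyde dehydrogenase ALDH3A1, at 3.16 (adjusted p = 0.000149) without glucose. AKR1C1 and AKR1C2 encode near-identical aldo-keto reductases that can share reads, so the split between them is uncertain. AKR1C2 was near the floor in KMT2D-WT cells, at 0.135 to 0.506 CPM with glucose and 0.544 to 0.917 CPM without. AKR1C1 was at 1.43, 11.6 and 4.77 CPM in KMT2D-WT cells with glucose. There it was also higher in KO1 than in KO2, by 1.92 on the log2 scale (adjusted p = 0.000150 in edgeR).

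Of 8 genes of heme and iron handling, 1 was called higher and 2 lower with glucose, and 4 and 2 without. The ferritin genes FTL and FTH1, which store iron and are known targets of NRF2, were called higher without glucose, at 0.90 (adjusted p = 0.000190) and 0.88 (adjusted p = 0.000204), and their effects differed between the conditions by 0.69 (adjusted p = 0.0125) and 1.05 (adjusted p = 0.000579). HMOX1, of the same list, was lower in both conditions. Of 6 genes of NADPH supply, 3 were called higher in each condition. They include TKT, TALDO1 and PGD of the pentose phosphate pathway, at 0.50, 0.69 and 0.48 with glucose (adjusted p = 0.00564, 0.000666 and 0.00300) and 1.04, 0.99 and 0.90 without (adjusted p = 4.33e-05, 5.90e-05 and 0.000103).

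Of 6 efflux transporters, 1 was called higher with glucose, and 1 higher and 2 lower without. Of 4 other NRF2 targets, 2 were called higher in each condition, namely TRIM16 at 1.33 (adjusted p = 0.00670) and 2.30 (adjusted p = 0.000100) and TRIM16L at 0.93 (adjusted p = 0.00292) and 1.18 (adjusted p = 6.70e-05). Of the superoxide dismutases and catalase, 1 of 3 was called higher and 1 lower with glucose, and 2 and 1 without. SOD1 was at 0.50 (adjusted p = 0.00793) and 0.79 (adjusted p = 0.000244). SOD2 went the other way, at -0.32 (adjusted p = 0.0393) and -0.63 (adjusted p = 0.0114).

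After glucose deprivation in experiment 1, the 4 other pathway genes called higher included MAFF at 1.11 (adjusted p = 0.0476), the glutathione-degrading enzyme CHAC1 at 2.37 (adjusted p = 0.000990), SESN2, a sestrin, at 1.59 (adjusted p = 0.00625) and FTL at 0.80 (adjusted p = 0.0438), all on the log2 scale in edgeR.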

How the data were processed

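RNA from SCC23 cells was measured in 14 libraries, grouped by their labels into KMT2D-WT and KMT2D-KO with and without glucose. The authors mapped the reads with HISAT2, counted primary alignments on genes with featureCounts 2.0.3 without strand, using the Ensembl 102 annotation of GRCh38, and deposited raw counts. In 4 libraries both mates of a pair were counted, so 1 fragment could count more than once.

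Tests used the quasi-likelihood F test of edgeR 4.0.16 (R 4.3.3) after filterByExpr (minimum 10) and TMM scaling, with Benjamini-Hochberg adjustment over all genes tested and a limit of 0.05 on the adjusted p, with experiment as a covariate, or line as a block in experiment 1. The study names DESeq2 and no covariate. Experiment is given by the labels, and the differences between experiments 1 and 2 correlated over genes between the genotypes (0.899 with glucose, 0.727 without). Deviations of the lines in experiment 1 also correlated between the conditions (0.432 to 0.635). SE is the log2 fold change divided by the root of F. The study describes its RNA-seq as 2 independent experiments, and whether the libraries within 1 experiment came from separate cultures is not stated, so p-values measure the spread between these libraries, which may be technical, and depth from 15669154 to 62968057 counts limits genes with few counts. The fits were tested on simulated data, where the share of false calls was above the limit in all comparisons except the difference between the conditions. Alternatives were DESeq2 1.42.0, RLE scaling, no filter, no covariate, halved or summed libraries, single experiments and lines, and each library left out.

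The 10 genes and the pathway lists were chosen with earlier results of these data known. The lists were written from general knowledge, and the genes named from them are at most 3 per list and comparison, those with the largest log2 fold change among genes called with a mean of at least 1 CPM and, for KMT2D-KO over KMT2D-WT, the same direction in both experiments. ChIP-seq data were not analysed here.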

Additional observations from a re-analysis of the deposited data

Results flagged for a closer look

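NFE2L2 stood out because its KMT2D-KO effect differed between the glucose conditions. The mix of KO lines by expression differed between them as well, so glucose and line cannot be told apart in this fit. Experiment 1 held the same lines in both conditions. There the log2 ratio of the KMT2D-KO to the KMT2D-WT mean was 0.16 with glucose and 0.83 without. This rests on 1 KMT2D-WT library in each condition and was not tested. The KO1 library of experiment 1 without glucose was at 87.7 CPM, inside the KMT2D-WT range of 62.9 to 94.1 CPM. The log2 difference of the effects was 0.891 (SE 0.185, adjusted p = 0.0111 in edgeR over all genes tested), from 0.18 with glucose to 1.04 without. It was positive without each of the 14 libraries in turn, from 0.82 to 1.05, and its adjusted p was 0.482 with experiment left out and 0.102 with the close pairs summed.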

How the results depend on the processing

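The number of genes called by edgeR in KMT2D-KO cells with glucose was 5042, and it became 971 with no replicate block (experiment left out), 304 with experiment 1 alone, 2336 with experiment 2 alone, and 2142 to 5048 with 1 library left out, past 1.5 times lower without any KMT2D-WT library (2142, 3107 and 3249). Without glucose it was 8521, and it became 3659 with no block, 2785 with close pairs summed, 12888 with experiment 2 alone, where the close pairs are the only replicates, and 0 with experiment 1 alone (2134 at an unadjusted p under 0.05), where 1 KMT2D-WT library stands alone and is assumed to vary like the KMT2D-KO libraries. For the difference between conditions it was 2105, then 3473 with DESeq2, 70 with no block, 258 with close pairs summed and 788 to 4230 with 1 library left out, past 1.5 times apart without any KMT2D-WT library or any deprived KMT2D-KO library but the KO2 library of experiment 1 (4230 without the KO1 library of experiment 1). For glucose deprivation in experiment 1 it was 177, then 329 with RLE, 1158 with no filter, 633 with DESeq2, 3 with genotype in place of the line block, 8111 with all 14 libraries, and 162 to 1336 with 1 library left out, past 1.5 times higher without either KMT2D-WT library (1274 and 1336) or KO1 library (663 and 617). For KO1 over KO2 it was 3116, then 10 with no block and 905 to 3974 with 1 library left out, past 1.5 times lower without any KMT2D-KO library. RLE moved the calls without glucose from 4342 higher and 4179 lower to 4723 and 3883, and those for the difference from 884 and 1221 to 1158 and 1127. The cause of these shifts was not tested.

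With glucose, KEAP1 was at -0.23 in experiment 1 alone, at -0.17 with KO1 alone and at -0.13 to 0.17 with 1 library left out, and SRXN1 at -0.59 in experiment 1 alone. Without glucose, OSGIN1 was at -0.025 in experiment 1 alone. For the difference between conditions, HMOX1 was at 0.090 with no block, at 0.034 with close pairs summed and at -0.33 to 0.21 with 1 library left out, OSGIN1 at -0.014 with close pairs summed and at -0.051 to 0.30, GPX2 at -0.054 to 0.31 and SRXN1 at -0.021 to 1.09. For glucose deprivation with all 14 libraries, GCLM was at 0.081 and GPX2 at -0.13, and with 1 library left out KEAP1 was at -0.051 to 0.15, GCLC at -0.10 to 0.53, TXNRD1 at -0.018 to 0.52 and OSGIN1 at -0.16 to 0.31. For KO1 over KO2 the ranges were -0.24 to 0.001124 for GCLC, -1.07 to 0.34 for GPX2 and -0.27 to 1.18 for SRXN1. None of these reversed values was called in the main analysis. HMOX1 with glucose was called in all 16 alternatives. Over the genes named, 1667 of 2057 values kept their direction and side of the threshold, 319 lost the call, 33 gained it and 38 changed sign.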
